A study of Lactuca sativa with 9 samples.

Results

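A set of 539 exonic circRNAs of lettuce (Lactuca sativa) leaves, 32.67% of the 1650 circRNAs in the deposited table, came from parental genes that the table lists with 2 or more circRNAs. A circRNA was included when it was typed as exonic and its gene name stood in at least 2 rows of the table. Its response to light played no part in the choice. A row needs a back-spliced read, so genes with more reads can enter the set more easily. This bears on the comparisons below with genes that have a single circRNA, and on those between light groups, which differ in depth. The set covered 238 of the 1325 parental genes. Of these genes, 161 had 2 exonic circRNAs, 43 had 3, 9 had 4, 4 had 5, 1 had 6 and 1 had 7, and another 19 had a single exonic circRNA beside intronic ones. The samples were leaves of 24-d-old plants of The Hong Kong Glass lettuce, with 3 libraries at high light intensity (Las_SL, 340 µmol per square metre per second), 3 at medium (Las_ML, 175) and 3 at low (Las_WL, 60). These intensities are those of the labels and of the methods, whereas parts of the study's text exchange the values of Las_SL and Las_WL, and the labels were followed throughout. All groups shared the cultivar and the age, and the methods call the 3 libraries of a group biological replicates. No untreated group exists, and Las_ML serves as the middle level against which both others were compared.

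A circRNA forms when a splice donor is joined to an acceptor that lies upstream of it in the same transcript, a reaction called back-splicing. The exon or exons between both sites are closed into a ring, and a read across the new joint is the evidence for it. A gene can give several such rings when an acceptor is joined to different donors, when a donor is joined to different acceptors, or when separate parts of the gene are back-spliced. In animals, long flanking introns with paired repeats are known to favour back-splicing, and in plants such repeats are less common around circRNAs.

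The evidence for most members was thin. They held 2491 of the 6836 back-spliced reads (36.44%), and 295 of them (54.73%) rested on 1 read over the 9 libraries, against 65.02% of the 969 exonic circRNAs whose gene had no other circRNA. A read in 2 or more libraries was found for 157 members, 382 were read in 1 library, and 10 were read in all 9. The paper amplified circRNA24, circRNA99, circRNA213, circRNA216 and circRNA277 with divergent primers and reports their back-splice points as verified. The libraries held between 398 and 1036 back-spliced reads, and each limit or interval given here covers counting error only, since reads amplified by PCR are not independent molecules. Las_WL replicate 1 stood apart. It had the fewest back-spliced reads, its genes for dividing cells (120 genes for histones, replication and kinesins) summed to 8883 FPKM against 684 to 2648 in the other 8 libraries, and the group comparisons with Las_WL are therefore given with and without it. The leaf label itself could be checked against 65 mesophyll genes (light-harvesting proteins, photosystem subunits, Rubisco), which were all detected and summed to between 28590 and 79510 FPKM per library.

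Junctions of the same gene often shared a splice site. The 219 genes with 2 or more members gave 420 pairs of circRNAs. In 175 pairs (41.67%) both circRNAs used the same acceptor or the same donor, in 29 (6.91%) the shorter circRNA lay inside the longer one, in 29 (6.91%) they overlapped in part, and in 187 (44.52%) they lay apart. The shared site was the acceptor, the start of the circular exon chain, in 116 pairs and the donor, its end, in 59. In these pairs the other end differed by a median of 430 bp (range 3 to 9314 bp). At least 1 such pair was present in 129 genes (58.9%), and 71 genes held pairs that lay apart and no other kind. The circRNAs that lay apart were separated by a median of 892 bp (range 62 to 20575 bp), and in 71 of these pairs a single intron separated them, so that the downstream flank of the upstream circRNA was the upstream flank of the next.

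**Figure D1:**
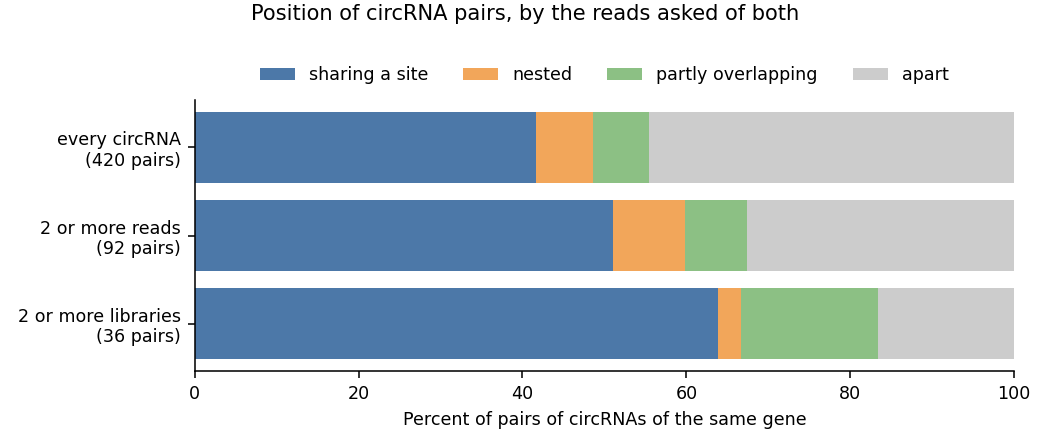
Position of pairs of circRNAs from the same gene, as percent of all pairs (x axis), for every circRNA (420 pairs), for circRNAs with 2 or more reads (92 pairs) and for circRNAs read in 2 or more libraries (36 pairs). Colours give pairs that share a site, are nested, overlap in part or lie apart, and the shared-site part is 41.67%, 51.09% and 63.89%.

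The share of pairs with a common site was higher among circRNAs with more evidence. It was 51.09% of 92 pairs when both circRNAs had 2 or more reads, and 63.89% of 36 pairs (23 pairs) when both were read in 2 or more libraries. Pairs that lay apart were 6 of these 36. Few genes were left in these subsets, 68 with 2 or more reads per circRNA and 31 with 2 or more libraries per circRNA, out of 238. In 136 of the 420 pairs (32.38%) at least 1 library held both circRNAs, and 62 of these 136 shared a site.

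Acceptors were the more frequent point of convergence. Of 438 distinct acceptors 88 were used by 2 or more members and 11 by 3 or more, whereas of 481 distinct donors 57 were used by 2 or more and 1 by 3. In all, 291 members (53.99%) shared a site with another member. The most used sites carried 4 circRNAs each. The first was the acceptor of LOC111899141, which encodes a C2 domain protein (a calcium-dependent membrane-binding domain), at position 47470 of scaffold NW_019673189.1 (Lsat_Salinas_v7, plus strand). From it, circRNA886, circRNA240, circRNA1500 and circRNA1051 reached donors 1606, 2527, 3952 and 4544 bp downstream and contained 3, 4, 6 and 7 exons. The second was the acceptor at 1111511 of NW_019672841.1 in LOC111895660, a gene described as hypothetical, from which circRNA491, circRNA1062, circRNA251 and circRNA492 spanned 151 to 1354 bp. The only donor with 3 circRNAs was that of LOC111917240, the P protein of glycine decarboxylase in photorespiration, at 2142979 of NW_019677217.1, where circRNA384, circRNA795 and circRNA796 ended with 1 read each.

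**Figure D2:**
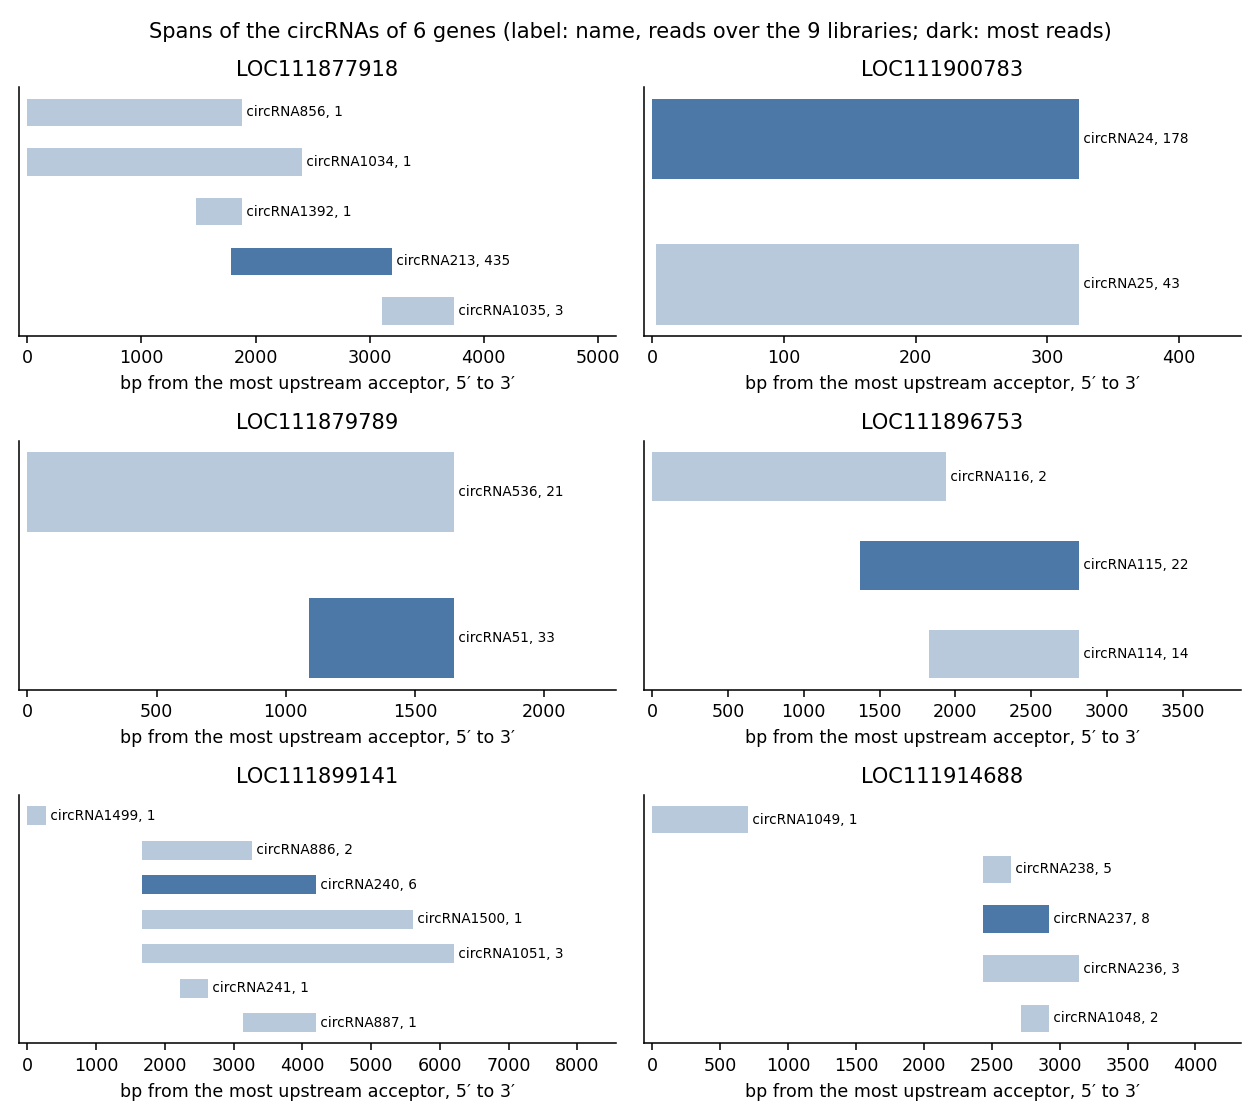
Spans of the circRNAs of 6 genes, each bar running from acceptor to donor in the direction of transcription (x axis, bp from the most upstream acceptor), with the name and the reads over the 9 libraries beside it and the circRNA with the most reads in dark. In LOC111899141 4 bars start at the same acceptor, in LOC111914688 3 do, and in LOC111900783 both bars differ by 3 bp at the start.

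Flanking introns were short in the set, as they were in the other genes. The intron upstream of a member had a median length of 175 bp (quartiles 82 and 450, range 60 to 42197 bp) and the intron downstream 149 bp (quartiles 83 and 424, range 60 to 23604 bp). For 968 exonic circRNAs from genes with no other circRNA the medians were 184.5 and 133.5 bp. An upstream intron under 100 bp flanked 34.69% of the members and 34.19% of the others, and one over 1000 bp flanked 9.65% and 8.47%. The longest upstream intron, 42197 bp, belonged to circRNA1109 of LOC111913855, and LOC111905397 had one of 30850 bp in front of the acceptor shared by circRNA74 and circRNA753. The spans of the members were longer, with a median of 622 bp (quartiles 361 and 1102) against 493 bp (299 and 835), and 20.59% of the members were of 1 exon against 28.69% of the others. These are descriptions without a test, since circRNAs of a gene share introns and exons.

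The adjoining introns of shared and unshared sites were compared without a test. The intron before the 88 shared acceptors had a median of 155 bp (quartiles 81.75 and 362) and that before the 350 unshared acceptors 200 bp (82.25 and 509.2). After the 57 shared donors the intron had a median of 218 bp (86 and 528) and after the 424 unshared donors 133 bp (81.75 and 392.2). The quartile ranges overlapped on both sides, and the shared group had the lower median at acceptors and the higher at donors.

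Reads were unevenly divided between the junctions of a gene. Among the 219 genes, 79 had a tie for the most reads, and in 62 of these every circRNA had 1 read, so a leading junction could be named in 140. Of 44 genes with 10 or more member reads 1 was tied, and in the other 43 the leading circRNA held a median of 82.61% of the reads (range 40% to 99.08%). It held 75% or more in 28 of them, 90% or more in 11 and under 50% in 2. The leader was chosen by its reads, so these shares are a description, and in the 28 of the 43 genes with 2 members it holds over 50% by construction (median 84.62%, range 61.11% to 99.08%). In the 15 genes with 3 or more members it held a median of 72.22% (range 40% to 98.64%) and more than 50% in 12. The leading circRNA was the shortest of its gene in 66 of 140 genes, had the longest upstream intron in 40 and the longest downstream intron in 41. Its flanking introns had medians of 176 and 140 bp, against 188 and 153 bp for the 201 other circRNAs of the same genes, and its median span was 549.5 bp against 623 bp. In 100 pairs the leading circRNA shared a site with a weaker one, the acceptor in 69 and the donor in 31. It was the shorter of both in 52. A shared acceptor has the same upstream intron and a shared donor the same downstream intron. The counts of longest introns thus cover genes where the leader and another circRNA could not differ. No expected share was computed for them.

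**Figure D3:**
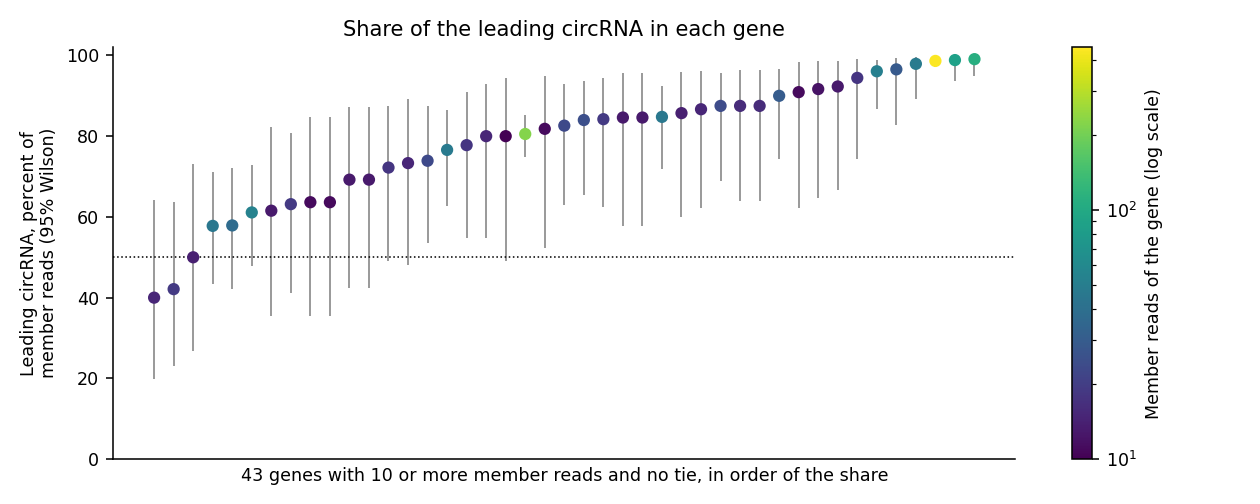
Share of member reads held by the leading circRNA (y axis, percent, with 95% Wilson intervals for counting error) in each of the 43 genes with 10 or more member reads and no tie, in order of the share, with the colour giving the reads of the gene on a log scale. The points run from 40% to 99.08%, and the dotted line marks 50%.

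The gene with the most reads was LOC111877918, a pentatricopeptide repeat protein of the family that binds RNA in plastids and mitochondria. Its circRNA213 (scaffold NW_019678756.1, 2066431 to 2067844, plus strand, 4 exons) held 435 of 441 reads (98.64%, 95% Wilson interval 97.06% to 99.37%). Per library it had 34, 58 and 38 reads at high, 63, 58 and 50 at medium and 9, 65 and 60 at low light. The lowest value was again that of Las_WL replicate 1, where the FPKM of the parental gene was also lowest (21.68 against 28.45 to 46.28 elsewhere). The other 4 circRNAs of this gene, circRNA856, circRNA1034, circRNA1392 and circRNA1035, had 1 to 3 reads. The first pair of these starts at a common acceptor, and circRNA856 and circRNA1392 end at a common donor.

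The next gene was LOC111900783, tripeptidyl peptidase II, a large peptidase of the cytosol that cuts tripeptides from oligopeptides. Its circRNA24 and circRNA25 (NW_019673549.1, to the donor at 97714, plus strand) began at acceptors 3 bp apart, at 97390 and 97393, and held 2 exons each, with flanking introns of 71 to 75 bp. circRNA24 had 22, 21 and 16 reads at high, 27, 29 and 25 at medium and 7, 12 and 19 at low light. circRNA25 had 7, 6 and 8, then 7, 6 and 5, then 0, 2 and 2. Both were read together in 8 libraries. The upstream acceptor gave 73.75% of the reads in Las_SL (Wilson interval 63.18% to 82.14%), 81.82% in Las_ML (73.08% to 88.18%) and 90.48% in Las_WL (77.93% to 96.23%), and the intervals overlapped. The last share was 88.57% (74.05% to 95.46%) without Las_WL replicate 1. Pairs with both ends within 10 bp were found in 2 further genes, LOC111889565 (circRNA1036 and circRNA451) and LOC111912780 (circRNA961 and circRNA558), each circRNA with 1 or 2 reads. At so small a distance the reads of both junctions are told apart by a few bases of the alignment.

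Other abundant genes had a leading junction of the same kind. LOC111912867, described as a chloroplastic protein-ribulosamine 3-kinase (an enzyme that helps to remove sugars bound to proteins), gave circRNA190 with 108 of 109 reads. It had 18, 13 and 9 reads at high, 16, 0 and 19 at medium and 11, 13 and 9 at low light. The 0 of Las_ML replicate 2 stands against 9 or more reads in every other library, and with 863 back-spliced reads that library was not among the shallowest. The upstream intron of circRNA190 was 4033 bp long, and the single read of circRNA631, from the same donor, began at an inner acceptor behind an intron of 239 bp. LOC111913013, a hypothetical protein, repeated this layout, with 86 of 87 reads on circRNA216 (upstream intron 1024 bp) and 1 on circRNA861 (222 bp).

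In 5 further genes the leading circRNA spanned 247 to 966 bp. LOC111916189, a peptidase of the subtilisin family, had 65 reads on circRNA99 of 570 bp (13, 7 and 7 at high, 8, 6 and 8 at medium and 5, 8 and 3 at low light), its other row being intronic. LOC111895324, a DHHC-type palmitoyltransferase (such enzymes attach palmitate to proteins), had 49 of 51 reads on the single-exon circRNA277 of 297 bp, and the 2 reads of circRNA504 added the next exon from the same acceptor. LOC111898038, a DNA glycosylase (an enzyme of base excision repair), had 47 of 48 reads on circRNA196 of 292 bp. LOC111919020, a homologue of spastin, which severs microtubules, had 39 of 46 reads on the single-exon circRNA169 of 247 bp, and circRNA417 extended it by 1 exon with 6 reads in 3 libraries. LOC111913556, with a histidine kinase-like ATPase domain, had 36 of 47 reads on circRNA142 of 966 bp and 10 on the shorter circRNA401, which were read together in 7 libraries and started at the same acceptor.

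Reads were split more evenly in a few genes. In LOC111880132, a MORN motif protein, circRNA188 (15 reads) and circRNA189 (26 reads) lay apart, divided by an intron of 4693 bp that flanked both, and a longer circRNA1268 joined the acceptor of the first to the donor of the second with 2 reads. This was the only gene with 2 or more of its circRNAs in every library. In LOC111899141 the 7 circRNAs shared 15 reads and the leading circRNA240 had 6 (40%). In LOC111896900, a peptidase of the subtilisin family, 6 circRNAs shared 9 reads, of which the single-exon circRNA537 had 4. In LOC111914688, an unconventional myosin (an actin-based motor), circRNA237, circRNA238 and circRNA236 ran from a common acceptor with 8, 5 and 3 reads.

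Of the 23 pairs with a common site and reads in 2 or more libraries on both sides, the 10 with the most reads on the weaker side are each described here. In LOC111901567, a GTP-binding domain protein, circRNA109 (12 reads) and circRNA110 (6) shared the acceptor and differed by 1010 bp at the donor. In LOC111876505, with no named function, circRNA421 (8) and circRNA172 (5) shared the donor and differed by 66 bp at the acceptor. In LOC111887307, a transporter of the major facilitator superfamily, circRNA270 (7) and circRNA498 (5) differed by 212 bp at the donor. In LOC111885653, a brefeldin A-inhibited exchange factor of vesicle traffic, circRNA86 (4) and circRNA87 (7) differed by 174 bp at the donor. In each of these 4 genes the leading share had a Wilson interval that reached below 50%. In the 13 pairs not among the 10, the circRNA with more reads had 2 to 21 and the other 2 to 4, and in 9 of them 75% or more of the reads of the pair lay on 1 circRNA. Those with the most reads, named here after their values were seen, were circRNA35 and circRNA723 of LOC111897124 (21 and 4 reads), circRNA76 and circRNA77 of LOC111886111 (21 and 3) and circRNA120 and circRNA778 of LOC111904707 (17 and 4).

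The question of the light treatment was first whether the set as a whole took more or fewer reads in a group. Per 1000000 uniquely mapped reads, the members had 4.54, 4.72 and 3.91 reads at high light (mean 4.39 ± 0.430, SD, n = 3), 4.22, 4.22 and 4.34 at medium light (4.26 ± 0.0726) and 1.80, 4.10 and 3.88 at low light (3.26 ± 1.27). Every library of Las_WL lay below every library of Las_ML, which gave an exact two-sided permutation p of 0.1, the smallest that 3 against 3 allows (0.3 after Benjamini-Hochberg adjustment over 3 comparisons). Las_SL against Las_ML (exact p = 0.6) and Las_SL against Las_WL (exact p = 0.2) overlapped. When Las_WL replicate 1 was left out, the difference of Las_WL from Las_ML fell from 1.00 to 0.272 reads per 1000000, still with no overlap (exact p = 0.1, the smallest possible), and that from Las_SL fell from 1.13 to 0.404 (exact p = 0.3). In leaf samples, fewer cells of a type and less RNA per cell cannot be told apart.

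As a share of all back-spliced reads the set differed by less than the spread between libraries. It took 37.92%, 32.53% and 34.94% at high light (mean 35.13% ± 2.70, SD, n = 3), 35.42%, 36.38% and 39.36% at medium light (37.06% ± 2.05) and 31.16%, 38.21% and 42.65% at low light (37.34% ± 5.80). The groups overlapped in all 3 comparisons (exact permutation p = 0.4, 1 and 0.6, two-sided). The mean of Las_WL was 40.43% without replicate 1, which did not overlap with Las_SL (exact p = 0.2 with 2 libraries against 3) and overlapped with Las_ML (exact p = 0.3).

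**Figure D4:**
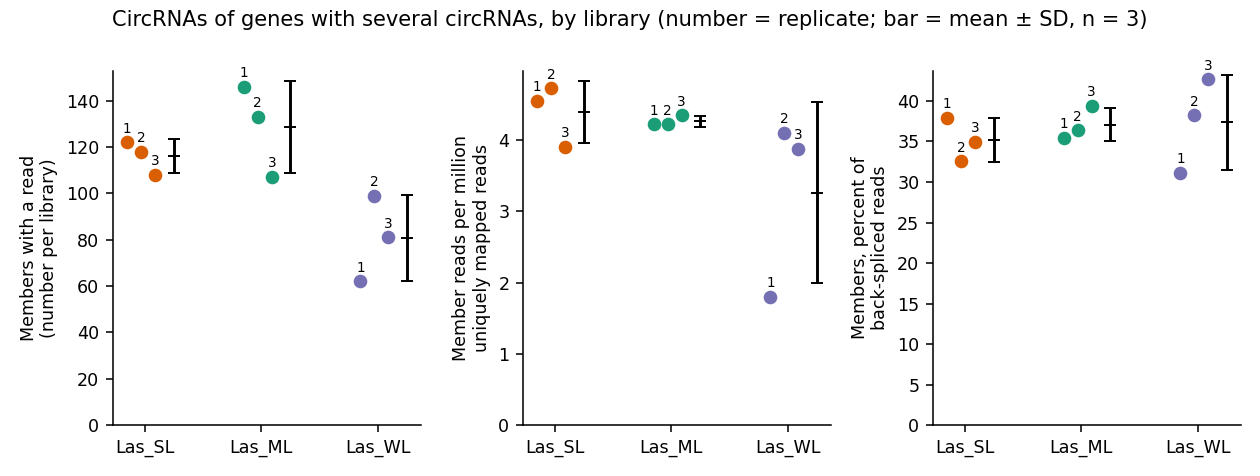
Number of members with a read (left), member reads per 1000000 uniquely mapped reads (middle) and member reads as percent of all back-spliced reads (right) in each library, numbered by replicate, with the mean ± SD of each group (n = 3). Las_WL replicate 1 is the lowest point in all 3 panels.

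Fewer members were detected at low light, where the libraries were also shallower. A read was found for 122, 118 and 108 members at high light, 146, 133 and 107 at medium light, and 62, 99 and 81 at low light. Las_WL did not overlap with either group (exact permutation p = 0.1 for both, the smallest possible). This was not particular to the set. By the study's own counts of all circRNAs, every library of Las_WL also lay below every library of Las_SL and Las_ML. At 398 reads per library, the depth of the shallowest, the expected number was 66.34 to 76.67 at high light, 73.44 to 76.28 at medium light and 62 to 68.97 at low light, and the difference between Las_WL and Las_ML shrank from 48 to 8.45 members. Without Las_WL replicate 1 the difference at full depth was 38.67 (exact p = 0.2 with 2 libraries against 3), and at 398 reads 6.39 (exact p = 0.1, the smallest possible). The part of depth in the remaining difference was not tested.

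Most members were read in a single light group, and by the study's own counts the share was higher among all circRNAs of the table. Of the members, 402 of 539 (74.58%) were read in a single group, while 79 were read in 2 groups and 58 in all 3. Of the 402, 138 were read at high light, 173 at medium light and 91 at low light. However, 295 of them (73.38%) had 1 read in all, and only 20 were read in 2 or more libraries of their group (5, 10 and 5). Since a count of 0 allows up to 3 reads, absence from a group was not detectable for members with 1 read.

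The circRNAs of a gene were often not read in the same library. In 94 of the 219 genes (42.92%) at least 1 library held 2 or more of the circRNAs, in 153 at least 1 group did, and in 66 they were seen together only across groups. Among genes detected in a library, 20%, 19.59% and 17.78% showed 2 or more circRNAs at high light, 27.19%, 20.75% and 20.69% at medium light, and 12.73%, 16.47% and 14.08% at low light. The groups did not overlap in any comparison (exact permutation p = 0.1 each, the smallest possible). The order of the groups was the same as that of their mean back-spliced reads per library (882 in Las_ML, 843.3 in Las_SL and 553.3 in Las_WL). Single libraries did not follow the same order on both measures. With its replicate 1 left out, the mean share of genes with 2 or more circRNAs in Las_WL rose from 14.43% to 15.28% and stayed below the other groups (exact p = 0.1 for both). The part of depth in this order was not tested. A gene enters the set by reads on a second circRNA in these same libraries, so the comparison is tied to the choice of the set. Of the members read in a single group, 138 were read in Las_SL, 173 in Las_ML and 91 in Las_WL.

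Single members were then compared between groups with the quasi-likelihood test of edgeR, fitted on the 347 circRNAs with a read in 2 or more libraries, and counted as called with a change of at least 2-fold at a p of up to 0.05 before adjustment. The 382 members read in 1 library were not tested. In Las_SL vs. Las_ML 2 of 157 members were called (1 higher and 1 lower), against 2.31% of all circRNAs tested. In Las_WL vs. Las_ML 5 were called, all lower in Las_WL, against 3.17%, and in Las_SL vs. Las_WL 6 were called, all higher in Las_SL, against 3.75%. The members were thus called about as often as circRNAs in general (1.27%, 3.18% and 3.82%). No member passed an adjusted p of 0.05 in edgeR. The lowest Benjamini-Hochberg adjusted p was 0.763, 0.195 and 0.519, the counts at an unadjusted p below 0.05 were 2, 5 and 6, and DESeq2 called 1 member in each comparison at the unadjusted threshold. Without Las_WL replicate 1, 4 members were called in Las_WL vs. Las_ML and 3 in Las_SL vs. Las_WL. The comparisons share libraries, so those with Las_WL are not independent of each other.

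The median log2 fold change of the members followed that of all circRNAs tested. It was 0.17 against 0.16 in Las_SL vs. Las_ML, -0.65 against -0.60 in Las_WL vs. Las_ML, and 0.48 against 0.66 in Las_SL vs. Las_WL. Without Las_WL replicate 1 it was -0.55 against -0.51 in Las_WL vs. Las_ML and 0.42 against 0.84 in Las_SL vs. Las_WL, so that the medians were lower in Las_WL with and without that library.

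The circRNAs of a gene took unlike shares of its reads in LOC111879789, annotated as a disease resistance protein, a name used for immune receptors of plants. Its circRNA536 and circRNA51 ended at the same donor (NW_019679123.1, position 1595076, plus strand, before an intron of 5461 bp) and began 1091 bp apart, so that the longer held 5 exons and the shorter 3. circRNA536 had 0, 0 and 1 reads at high, 2, 7 and 7 at medium and 1, 0 and 3 at low light. All libraries of Las_ML lay above those of Las_SL. The total of 16 reads in Las_ML was 14.0 times that of 1 read in Las_SL per mapped read (95% counting interval 2.18 to 588), with a log2 fold change of -3.44 ± 1.27 (SE) for Las_SL vs. Las_ML (adjusted p = 0.763, edgeR). It was called in all 15 alternative fits, with adjusted p from 0.268 to 1. circRNA51 had 3, 4 and 7 reads at high, 4, 5 and 4 at medium and 1, 3 and 2 at low light. The share of circRNA51 was 93.33% in Las_SL (Wilson interval 70.18% to 98.81%), 44.83% in Las_ML (28.41% to 62.45%) and 60% in Las_WL (31.27% to 83.18%), or 62.5% (30.57% to 86.32%) without replicate 1. The difference in share was not tested over libraries. The FPKM of the parental gene was 6.77, 9.25 and 8.03 in Las_SL and 5.92, 6.04 and 7.13 in Las_ML, and limma did not call it (adjusted p = 0.934).

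In LOC111896753, ADP-glucose pyrophosphorylase, which makes the substrate of starch synthesis, circRNA114 and circRNA115 shared the donor at 69655 of NW_019672875.1 (minus strand) and differed by 1 exon. circRNA115 had 4, 0 and 5 reads at high, 3, 7 and 3 at medium and none at low light. Las_WL thus lay below every library of Las_ML and overlapped with Las_SL at 0. Set against a floor of 3 reads over the 3 libraries of Las_WL, it was 3.71-fold higher in Las_ML and 2.93-fold higher in Las_SL. The lower counting limit was 2.61-fold for Las_ML over Las_WL and 1.925-fold for Las_SL over Las_WL. In edgeR the adjusted p was 0.195 for Las_WL vs. Las_ML (called in 15 of 15 alternatives with adjusted p from 0.0572 to 1) and 0.519 for Las_SL vs. Las_WL (called in 14 of 15). circRNA114 had 5, 1 and 2 reads at high, 3, 1 and 0 at medium and 0, 0 and 2 at low light. The FPKM of the gene was 36.04, 94.33 and 84.63 in Las_WL against 60.97, 82.57 and 71.61 in Las_ML, so that Las_WL held both the lowest value, in replicate 1, and the highest.

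Of the tripeptidyl peptidase pair described above, circRNA25 was called and circRNA24 was not. circRNA25 had 21 reads at high light, 18 at medium light and 4 at low light. Its log2 fold change was 2.26 ± 0.767 in Las_SL vs. Las_WL (adjusted p = 0.519, edgeR) and -1.85 ± 0.791 in Las_WL vs. Las_ML (adjusted p = 0.621). Both comparisons had no overlap between groups. Whether both junctions differ in response was not tested, and the call in Las_WL vs. Las_ML was lost without Las_WL replicate 1.

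Of the 5 other called members, circRNA216 and circRNA277 had the most reads. circRNA216 of LOC111913013 had 15, 12 and 8 reads at high, 20, 9 and 8 at medium and 6, 4 and 4 at low light, with a log2 fold change of 1.26 ± 0.555 in Las_SL vs. Las_WL (adjusted p = 0.581, edgeR), called in 10 of 15 alternatives. circRNA277 of LOC111895324 had 8, 8 and 2, then 12, 4 and 9, then 2, 3 and 1 reads, with -1.77 ± 0.684 in Las_WL vs. Las_ML (adjusted p = 0.621, edgeR), called in 13 of 15. Both had no library of Las_WL above the lowest of Las_ML. Both were also called in the comparison not quoted here, in 8 of 15 alternatives for circRNA216 in Las_WL vs. Las_ML and in 7 of 15 for circRNA277 in Las_SL vs. Las_WL. The call of circRNA277 in Las_SL vs. Las_WL was lost without Las_WL replicate 1 or 3, Las_SL replicate 1 or 2, or Las_ML replicate 1. In that comparison the FPKM of its parental gene moved the same way. The log2 fold change of 0.78 (adjusted p = 0.0429, limma) was under the 2-fold limit. No other called member had a parental gene that passed an adjusted p of 0.05. By RT-qPCR, in contrast, the paper reports an inverse correlation between circRNA277 and its parental gene. It reports the same for circRNA24 and circRNA213.

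The remaining 3 rested on few reads. circRNA127 of LOC111881148, a NOT2/NOT3/NOT5-like protein of the complex that shortens poly(A) tails, had 4, 2 and 0 reads at high light, 4, 2 and 0 at medium light and none at low light. circRNA237 of the myosin gene LOC111914688 had 5, 1 and 0 reads at high light, 2, 0 and 0 at medium light and none at low light. Each overlapped with Las_WL at 0, and against the floor of 3 reads each was 1.95-fold higher in Las_SL. The lower 95% counting limit for Las_SL over Las_WL was 1.149-fold for each. Their calls in Las_SL vs. Las_WL held in 9 of 15 alternatives for circRNA127 and in 7 of 14 for circRNA237. Both calls were lost when any library of Las_WL or Las_SL replicate 1 was left out, and with DESeq2. circRNA127 was also called in Las_WL vs. Las_ML, in 7 of 15 alternatives. circRNA57 of LOC111897745, an uncharacterized protein, had 6, 1 and 3 reads at high, 1, 0 and 0 at medium and 0, 5 and 1 at low light, a ratio of 11.4 between Las_SL and Las_ML (95% counting interval 1.62 to 495), and was called in 10 of 15 alternatives.

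**Figure D5:**
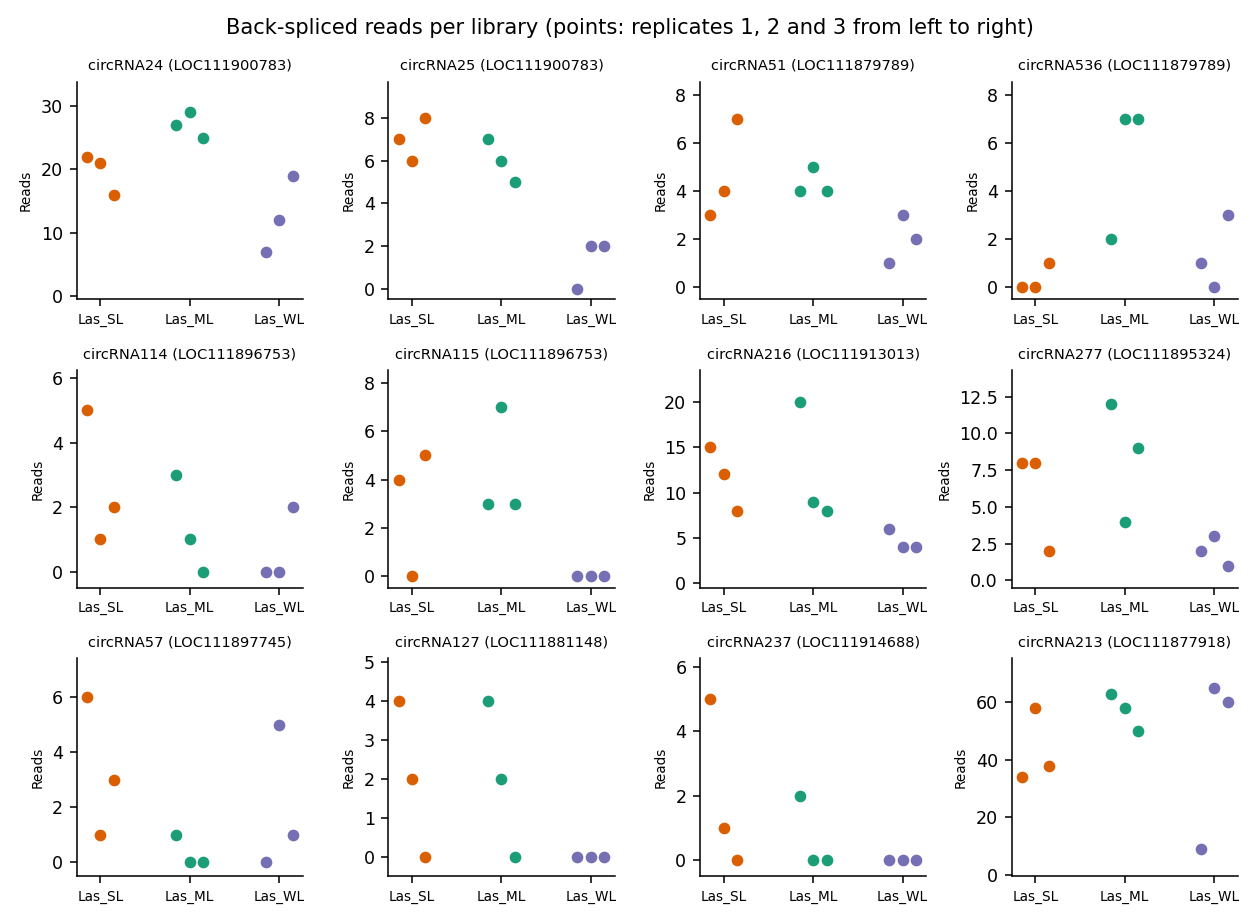
Back-spliced reads per library (y axis, reads) in the 3 light groups for the 8 called members, for circRNA24, circRNA51 and circRNA114, which share a site with called ones, and for circRNA213, the member with the most reads. circRNA115, circRNA127 and circRNA237 have no read in Las_WL, and circRNA536 has 16 of its 21 reads in Las_ML.

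Summing all circRNA reads of a gene gave each gene more reads but no firmer calls. Of the 223 genes of the set with a read in 2 or more libraries, 2 were called in Las_SL vs. Las_ML (1.7% of all 412 genes tested), 4 in Las_WL vs. Las_ML (2.67%) and 6 in Las_SL vs. Las_WL (3.16%), with the lowest adjusted p at 0.757, 0.640 and 0.567 (edgeR). The member genes were called at 0.897%, 1.79% and 2.69%. DESeq2 called none, and the counts at an unadjusted p below 0.05 in edgeR were 2, 4 and 6. Without Las_WL replicate 1 the counts in Las_WL vs. Las_ML and Las_SL vs. Las_WL were 6 and 3. The ADP-glucose pyrophosphorylase gene had 18 summed reads at high light, 18 at medium light and 2 at low light, and a log2 fold change of 2.92 ± 0.978 in Las_SL vs. Las_WL (adjusted p = 0.567) that was called in 14 of 15 alternatives. LOC111887307 had 6 summed reads at high light, 8 at medium light and none at low light. Las_ML was 2.28-fold higher than the floor, and the upper counting limit for the ratio of Las_WL to Las_ML was 0.685. LOC111881148 and LOC111895324 were called in both comparisons with Las_WL, LOC111913013 and LOC111895660 in Las_SL vs. Las_WL, and LOC111897745 and LOC111882956 in Las_SL vs. Las_ML.

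The parental genes were well expressed. Their mean FPKM over the 9 libraries had a median of 17.42 (quartiles 9.91 and 35.76), against 12.22 (6.26 and 25.70) for the 1085 genes with a single circRNA row and 5.36 for the 26145 genes tested. A gene entered the set only with reads on several circRNAs, so this comparison is tied to the choice of the set. The FPKM are of the same 9 libraries, for which the methods describe digestion of linear RNA with RNase R. How far they measure linear mRNA was not tested. All 238 genes could be joined to the gene table, 5 of them, LOC111912867 included, only to a locus merged with neighbours. Across the 238 genes, the member reads and the mean FPKM had a Spearman rho of -0.034 (a description across genes, which share libraries and depth). The genes with the highest FPKM, named here after their values were seen, were Rubisco activase (LOC111910617, mean 4324 FPKM, 4 circRNAs with 18 reads), catalase (LOC111878431, 1426 FPKM, 1 exonic circRNA), glycine decarboxylase P protein (LOC111917240, 666.7 FPKM, 5 circRNAs with 5 reads) and serine hydroxymethyltransferase (LOC111895989, 522.8 FPKM, 3 circRNAs with 7 reads). The first protects and reopens Rubisco, and the other 3 act in photorespiration. In LOC111910617, circRNA365 had 13 reads, and circRNA566 used the same acceptor with 2.

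Few of these genes differed in FPKM between light groups by the test. On log2(FPKM + 1) with limma, at an adjusted p below 0.05 and a change of at least 2-fold on that scale, 0 of 237 genes were called in Las_SL vs. Las_ML (0.00382% of all genes tested), 0 in Las_WL vs. Las_ML (0%) and 2 in Las_SL vs. Las_WL (2.93%). Without the fold limit, 0, 0 and 9 of the 237 had an adjusted p below 0.05 in limma, against 1, 0 and 1552 of the 26145 genes tested. At an unadjusted p below 0.05, 4, 29 and 58 of the 237 passed in limma (1.69%, 12.24% and 24.47%), against 5.52%, 13.78% and 26.31% of all genes tested. In Las_SL vs. Las_WL the share called was 0.844%, and the median log2 fold change was 0.20 for the set and 0.18 for all genes tested (0.27 and 0.32 without Las_WL replicate 1).

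Both called genes were higher at high light. LOC111888857, a CCT domain protein (the domain of CONSTANS and related regulators of flowering and of the clock), had 40.16, 49.23 and 42.27 FPKM at high, 33.45, 24.96 and 25.13 at medium and 7.90, 13.98 and 18.52 at low light. The 3 groups did not overlap, and the log2 fold change was 1.70 ± 0.280 (SE) in Las_SL vs. Las_WL (adjusted p = 0.0278, limma). Its circRNA913 had 3 reads, all in Las_ML. LOC111889565, with the C-terminal part of ataxin-2, had 480.6, 561.1 and 531.7 FPKM at high, 441.7, 380.2 and 418.5 at medium and 182.7, 261.1 and 270.0 at low light, and a log2 fold change of 1.16 ± 0.213 (adjusted p = 0.0325, limma). Its circRNA451 and circRNA1036 had 1 read each. Without Las_WL replicate 1 or without replicate 3 the test called 6 genes of the set in place of 2, without Las_ML replicate 1 it called 1, and without any other library it called 0. The calls held in 6 of 14 and in 4 of 14 alternatives, with adjusted p from 0.0140 to 0.129 and from 0.0155 to 0.131. Without Las_WL replicate 1 the first gene kept its call and the second fell just under the fold limit, at 0.98.

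The parental genes were of many kinds. By words in their descriptions, 58 of the 238 fell in at least 1 of 10 lists, 50 were hypothetical or uncharacterized and 1 had no description. Kinases were the largest list with 14 genes (5.88% of the set, against 4.79% of the genes with a single circRNA), followed by transport with 10 (4.20% against 5.25%), chloroplast and photosynthesis with 9 (3.78% against 2.86%), ubiquitin and proteasome with 8 (3.36% against 1.94%) and transcription and chromatin with 7 (2.94% against 3.04%). RNA processing matched 2 genes (0.840%) against 31 (2.86%), a difference that was not tested. No gene of the set matched the words for DNA repair and replication (against 3 with a single circRNA), 6 were peptidases, 3 belonged to translation and 2 to the cytoskeleton and its motors. The words do not separate all functions, as the kinase list holds the ribulosamine kinase LOC111912867, and the palmitoyltransferase LOC111895324 is in the transcription list for its zinc finger. They also miss genes, such as the DNA glycosylase LOC111898038 for DNA repair, the NOT-like LOC111881148 for RNA decay, and spastin LOC111919020 and fimbrin-1 LOC111892822 for the cytoskeleton, so the counts are those of the words.

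Reads were unevenly spread over these lists. The RNA processing list had 443 member reads, nearly all on circRNA213, the peptidases had 304, of which LOC111900783 had 221 and LOC111916189 had 65, and the kinases had 217, of which LOC111912867 had 109. The ubiquitin and proteasome list had 20 reads on 16 circRNAs. No gene of any list was called by limma in any comparison, and the median log2 fold changes of the lists in Las_SL vs. Las_WL lay between -0.23 (RNA processing) and 0.40 (transcription and chromatin), beside 0.18 for all genes tested.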

How the data were processed

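Leaf RNA of 9 libraries was sequenced in paired ends, 3 libraries per light group. The methods describe depletion of rRNA and digestion of linear RNA with RNase R, whereas the sample protocol describes selection of poly(A) RNA, which would lower the yield of circRNAs. The authors mapped the reads to Lsat_Salinas_v7 with TopHat2 and TopHat-Fusion and called circRNAs with CIRCexplorer2, while the submitters' processing notes list Bowtie 0.12.2, HISAT2 2.0 and StringTie 1.3.0 without saying for which step. The circRNA table holds raw counts of back-spliced reads per library, deposited without normalization. A normalized back-splice signal (SRPBM) deposited beside them was not used. Gene values are FPKM as computed by the authors. Other columns give positions, strand, exons and flanking introns as the authors deposited them, and intron length was taken as end minus start.

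Members were the exonic rows whose gene name stood in 2 or more rows. Counts were fitted with edgeR 4.0.16 (quasi-likelihood, R 4.3.3) over 347 circRNAs or 412 gene sums with a read in at least 2 of 9 libraries, with the uniquely mapped reads of the study as library size. log2(FPKM + 1) was fitted with limma 3.58.1 (trend) over 26145 genes that reached 0.5 FPKM on average. Group values per library were compared with exact two-sided permutation tests, and adjustment was by Benjamini-Hochberg. Shares have 95% Wilson intervals and read ratios exact conditional binomial intervals. Fits were tested on simulated data. Alternatives were TMM factors, DESeq2 1.42.0, other filters and pseudocounts, quantile normalization, a replicate block, merged junctions and each library left out. Depth was 398 to 1036 back-spliced reads per library, which leaves most single circRNAs with few reads.

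Named were the 12 genes with the most member reads, the 3 with the most rows, genes with a called member, up to 3 called parental genes per comparison with groups that do not overlap, and up to 10 pairs with a common or near-identical site read in 2 or more libraries each. Members, lists and tests were chosen with earlier results of these data known. Names outside this rule are sites, introns or levels that are extreme or counts too small to leave unnamed, chosen after their values were seen. No sequence of this genome build was used here, so none is printed.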

Additional observations from a re-analysis of the deposited data

Results flagged for a closer look

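The genes of the set also carried 22 intronic circRNAs, which the comparisons do not use, with 50 reads in all and 14 of them with 1 read. Without control samples, 4 exceeded the 3 reads that a count of 0 allows. These were ciRNA17 of LOC111907154 with 13 reads, ciRNA11 of LOC111921286 with 6, ciRNA12 of LOC111916850 with 5 and ciRNA26 of LOC111884674 with 4. ciRNA17 was read in 8 of the 9 libraries, with the highest count of 4 in Las_WL replicate 1, whereas ciRNA12 and ciRNA26 were read in a single library of Las_SL each. LOC111921286 encodes a domain of acetyl-CoA carboxylase, the enzyme that starts fatty acid synthesis, and LOC111916850 a cation/H+ exchanger.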

How the results depend on the processing

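Of the results named for a single circRNA or gene, 152 of 222 values under an alternative kept their direction and their side of the threshold, 70 kept the direction and lost the call, and none turned; the causes were not tested. DESeq2 called 1, 1 and 1 members in Las_SL vs. Las_ML, Las_WL vs. Las_ML and Las_SL vs. Las_WL, where edgeR had called 2, 5 and 6, and 0, 0 and 0 gene sums where edgeR had called 2, 4 and 6. An adjusted p below 0.05 left 0 members and 0 gene sums in all 3 comparisons. A fit on the libraries of the comparison alone gave 3 members in Las_WL vs. Las_ML. TMM factors gave 1 gene sum in Las_SL vs. Las_ML and 8 in Las_WL vs. Las_ML, and a minimum of 10 reads gave 1 in Las_SL vs. Las_ML. Leaving out a library each time gave 1 to 3, 3 to 7 and 3 to 6 called members, 0 to 3, 4 to 6 and 3 to 7 called gene sums, and 0 to 6 called parental genes in Las_SL vs. Las_WL, the highest without Las_WL replicate 1 or replicate 3. The fewest members (3) and gene sums (3) in Las_SL vs. Las_WL were those without Las_WL replicate 1. For parental FPKM, quantile normalization gave 0 in Las_SL vs. Las_WL, and an unadjusted p of up to 0.05 gave 5 in Las_WL vs. Las_ML and 16 in Las_SL vs. Las_WL.

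The replicate numbers were not taken to pair the libraries, since 4 of 18 correlations of deviations exceeded 0.1 and no comparison had all 3 above it. For FPKM in Las_SL vs. Las_WL they were 0.561, 0.423 and -0.27. With 3 libraries per group and few reads per circRNA, this check cannot exclude a pairing. With the replicate block edgeR called 2, 4 and 4 members and 1 gene sum in Las_SL vs. Las_ML, and limma called 0 parental genes in Las_SL vs. Las_WL.

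The difference in member reads per 1000000 in Las_SL vs. Las_ML, 0.132, ran from -0.0343 to 0.375 with a library left out. Per 100 back-spliced reads outside the set in place of mapped reads, the differences were -4.65 in Las_SL vs. Las_ML, 1.51 in Las_WL vs. Las_ML and -6.16 in Las_SL vs. Las_WL, the reverse of the sign per mapped read. Without the 3 members with the most reads the share of back-spliced reads differed by 0.00774, -0.530 and 0.538 percentage points, each reversed. With a library left out it ran from -2.37 to 3.38 in Las_WL vs. Las_ML and from -5.30 to 0.446 in Las_SL vs. Las_WL. None of these differences passed a test. The number of members at equal reads in Las_SL vs. Las_ML, -2.40, ran from -4.66 to 0.507 with a library left out. Chosen after seeing the data were the number of members at equal reads, the leaving out of libraries for it, for the number detected and for the percent of genes with 2 or more circRNAs, the shares and median fold changes without Las_WL replicate 1, and the reads per 1000000 without circRNA213, which were 0.232, -0.954 and 1.19 and kept their signs. The 238 genes became 68 with 2 or more reads per row and 31 with 2 or more libraries per row, and the share of pairs with a common site 51.09% and 63.89%. At 398 to 1036 back-spliced reads per library, depth limits what can be said of single circRNAs.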
